A study of Mus musculus with 9 samples.

Results

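The de novo fatty acid synthesis enzymes were followed here as 10 genes in pathway order, namely Slc25a1, Acly, Me1, Acaca, Fasn, Thrsp, Scd1, Scd2, Elovl5 and Elovl6. They were chosen by name, as every probe of the array that carries a member's symbol. Of the 10 genes, 9 were found by symbol with 15 probes, and Me1 was found under its older name Mod1 with 2 probes, which gave 17 of the 41174 probes on the array. RNA of mammary gland number 4 was taken on lactation day 2 (L2) from 4 WT and 5 hNAG-1 dams and hybridized to 1-color Agilent arrays, with 1 array per mouse. The labels give the strain background of both groups as C57BL/7, and the ages of the dams only as L2. The hNAG-1 dams carry a transgene that expresses human NAG-1, a secreted cytokine also named GDF15, and the transgene is expressed throughout the body rather than in the gland alone. The study's methods name a pair of founder lines and center on 1 of them, with the lines combined in some experiments, and the labels do not give the line of each dam.

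In the lactating gland, secretory epithelial cells make part of the fatty acids of milk from glucose. Citrate leaves the mitochondrion and is split into acetyl-CoA, which is carboxylated to malonyl-CoA and joined into a saturated chain at the expense of NADPH, and the chain can then be elongated and given a double bond. White adipocytes, which fill the fat pad around the epithelium, use the same enzymes.

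None of the 10 genes differed between the genotypes after adjustment over all probes (limma, lowest adjusted p of a member probe 0.654). In the brightest probe of each gene the mean log2 level was higher in hNAG-1 for 10 of 10 genes, by 0.22 for Elovl5 up to 0.84 for Slc25a1 and Elovl6, and the ranges of the genotypes overlapped for all 17 probes. Over all probes of the array the mean was higher in hNAG-1 for 48.3%, and for 46.5% of those well above background on every array of a genotype. The direction rested in part on 1 mouse. The library WT 2 was the lowest of the 9 arrays for 10 of 10 genes as scaled and for 7 of 10 with no scaling, and without it 7 of 10 genes had the higher mean in hNAG-1.

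The letters of 3 probes are shown first because the 4 probes of Acaca did not give the same difference. Each of these 3 is split over separate stretches of the genome, so it reads a spliced transcript. In the array's own annotation, on build mm7, the first covers chr11:84363852-84364855, the second chr11:84411918-84415918 and the third chr11:84350405-84362820. They are printed 5′ to 3′ as the scanner files give them, with no letters marked.
Acaca A_52_P23177: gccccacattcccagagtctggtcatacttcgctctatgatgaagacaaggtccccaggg
Acaca A_51_P439426: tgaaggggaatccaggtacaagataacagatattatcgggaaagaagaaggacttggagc
Acaca A_52_P595124: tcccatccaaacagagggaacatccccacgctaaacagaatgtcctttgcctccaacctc
The brightest Acaca probe, A_52_P318040, lies in 1 unbroken stretch at chr11:84470765-84470824 on mm7, and its array annotation names a cDNA with an apparent retained intron.

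Upstream sequence was held in the RefSeq promoter table, on build GRCm38.p6, for 8 of the 10 genes; Scd1 and Scd2 had no entry. Shown are the 250 bases before the start for Fasn, Thrsp and Slc25a1, the genes of the chain-building enzyme, of its lipogenic partner and of the citrate exit, because their NF-Y boxes are the motif that most members shared. NF-Y is a widely expressed factor that binds the CCAAT box. Capitals mark the NF-Y letters CCAAT, the E-box letters CACGTG and the GC box letters GGGCGG, each on either strand, so that their reverse complements are marked too. All 3 genes lie on the minus strand.
Fasn chr11:120824548-120824797: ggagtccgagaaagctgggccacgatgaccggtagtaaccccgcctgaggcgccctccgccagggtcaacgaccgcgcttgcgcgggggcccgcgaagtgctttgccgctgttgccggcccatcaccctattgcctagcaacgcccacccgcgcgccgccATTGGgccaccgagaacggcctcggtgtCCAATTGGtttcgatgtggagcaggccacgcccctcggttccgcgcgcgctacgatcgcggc
Thrsp chr7:97417551-97417800: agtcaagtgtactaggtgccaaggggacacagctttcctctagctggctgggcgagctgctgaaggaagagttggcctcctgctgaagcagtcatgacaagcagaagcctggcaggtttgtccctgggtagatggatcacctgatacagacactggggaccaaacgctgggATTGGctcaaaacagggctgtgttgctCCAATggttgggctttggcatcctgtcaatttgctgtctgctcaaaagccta
Slc25a1 chr16:17928220-17928469: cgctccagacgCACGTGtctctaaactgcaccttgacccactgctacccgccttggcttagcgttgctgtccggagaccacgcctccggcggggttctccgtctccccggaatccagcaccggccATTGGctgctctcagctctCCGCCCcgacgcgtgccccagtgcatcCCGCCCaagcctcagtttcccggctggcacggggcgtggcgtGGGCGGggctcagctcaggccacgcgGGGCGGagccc
Fasn held CCAAT boxes starting at -90, -62 and -59, of which the last 2 overlap, and Thrsp held them at -79 and -52. Slc25a1 held 1 CCAAT box at -125, an E-box at -239 and GC boxes at -106, -79, -37 and -11. Over the whole table window, which runs to 50 bases past the start, CCAAT was found in 6 of the 9 promoters of the 8 genes, GGGCGG in 3 and CACGTG in 2. Of all 32851 promoters in the table, 37.4% held CCAAT, 35.7% held GGGCGG and 7.15% held CACGTG. The sterol response element letters TCACNCCAC were in 0 of 9 and 1.24% of all promoters, and the STAT letters TTCNNNGAA were in 0 of 9 and 8.3%. Me1 has 2 promoters in the table, 1 with CCAAT and the other with GGGCGG. These letter counts are a description of the windows, and binding was not measured.

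Levels below are intensities of the scanner files after each array was scaled to a common 75th percentile of 760.429, in arbitrary units. They are comparable between mice for 1 probe and not between probes. Differences are hNAG-1 minus WT on the log2 scale, with the SE of the limma fit and an unadjusted p unless stated. In 16 of 17 probes the signal was well above background on all 9 arrays, and none was saturated. The percentage of probes well above background was 59.05% to 75.63% per array, and WT 2 had the highest. WT 2 also had the highest 75th percentile as deposited, 1132.81 against 508.59 to 914.883 on the other arrays, and so was scaled down the most. The arrays lay on 3 slides, each scanned in 1 session, with WT 1 on slide 1, hNAG-1 1 to 4 on slide 2, and WT 2 to 4 with hNAG-1 5 on slide 3. Slide 3 was therefore the only one with both genotypes, and a fit with slide as a block compares hNAG-1 5 with WT 2 to 4. Which of these dams were littermates, and which glands were processed together, is not given in the sources used here, so the p-values measure only the spread between these samples, which may in part be technical.

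WT 2 stood apart from the other mice in its lymphocyte markers. Lymphocyte markers (11 genes such as Cd79b, Ms4a1 and Cd3d) summed to 36749 in WT 2 against 1320 to 6188 in the other WT mice and 919.9 to 5896 in hNAG-1 mice, and 11 of 11 had the lower mean in hNAG-1, with a median difference of -1.23, or -0.41 without WT 2. With median scaling 10 of 11 were lower, with slide as a block 9, and without WT 2 and hNAG-1 2 8 (median -0.21). The sum is weighted to the brightest probe, Cd79b, at 19300 in WT 2, but as a mean of log2 values WT 2 also stood highest, at 2.69 against 0.80 in the next mouse. WT 2 was the highest mouse for 8 of the 11, and not for Cr2, Cd4 or Cd3e, which read 144, 69.68 and 222.9 there and up to 174, 86.61 and 222.9 in hNAG-1. By limma, Cd2 and the complement receptor Cr2 lay under an unadjusted p of 0.05, and 0 markers did without WT 1, WT 2 or hNAG-1 2 or with slide as a block. Luminal and milk protein markers (14 genes, with Csn2, Wap and Krt8) summed to 1562003 in WT 2, to 2210810 to 2851991 in the other WT mice, and to 2033465 to 2932999 in hNAG-1 mice. With no scaling WT 2 was at 2326916, inside the 1961650 to 2446493 of the others, whereas its lymphocyte sum was then 54745 against at most 4921. The luminal sum is weighted to the brightest milk protein probes, of which Wap was saturated on 2 arrays; as a mean of log2 values WT 2 was at -0.53 as scaled and 0.05 with no scaling. Their mean was higher in hNAG-1 for 14 of 14 genes (median difference 0.13), for 4 of 14 without WT 2 (median -0.04) and for 4 of 14 with no scaling (median -0.02). Muc1, an apical mucin of luminal cells, had the largest difference, 0.61, with 2843 to 5728 in hNAG-1 and 1930 to 2653 in WT, a lack of overlap in this direction that 0.695% of all probes had, and it was 0.29 with slide as a block. White adipocyte markers (12 genes, with Adipoq and Plin1) summed to 433320 to 823564 in WT and 612238 to 743550 in hNAG-1, with 10 of 12 genes higher and a median difference of 0.27, or 0.30 without WT 2 and 0.12 with no scaling (9 of 12). For these markers WT 1 stood apart, the lowest mouse for 9 of 12 as scaled, and without it 8 of 12 were higher with a median of 0.07. The adipocyte markers ran from -0.11 for Aqp7 to 1.005 for Retn (limma, unadjusted p = 0.0671), which was lowest in WT 1. Retn differed by 0.92 without WT 2 and 0.86 with slide as a block. Myoepithelial markers (7 genes) were higher for 7 of 7 (median 0.34; 6 of 7 and 0.12 without WT 2; 6 of 7 and 0.19 with no scaling), and WT 2 was again the lowest as scaled, at 77869 against 135764 to 179260 in all others. The smooth muscle myosin Myh11 of that list differed by 0.48, or 0.28 with slide as a block. The part of lymph node tissue, of the epithelial share or of fat in the differences below was not tested. In whole-gland RNA, fewer cells of a type and less RNA per cell cannot be told apart.

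**Figure D1:**
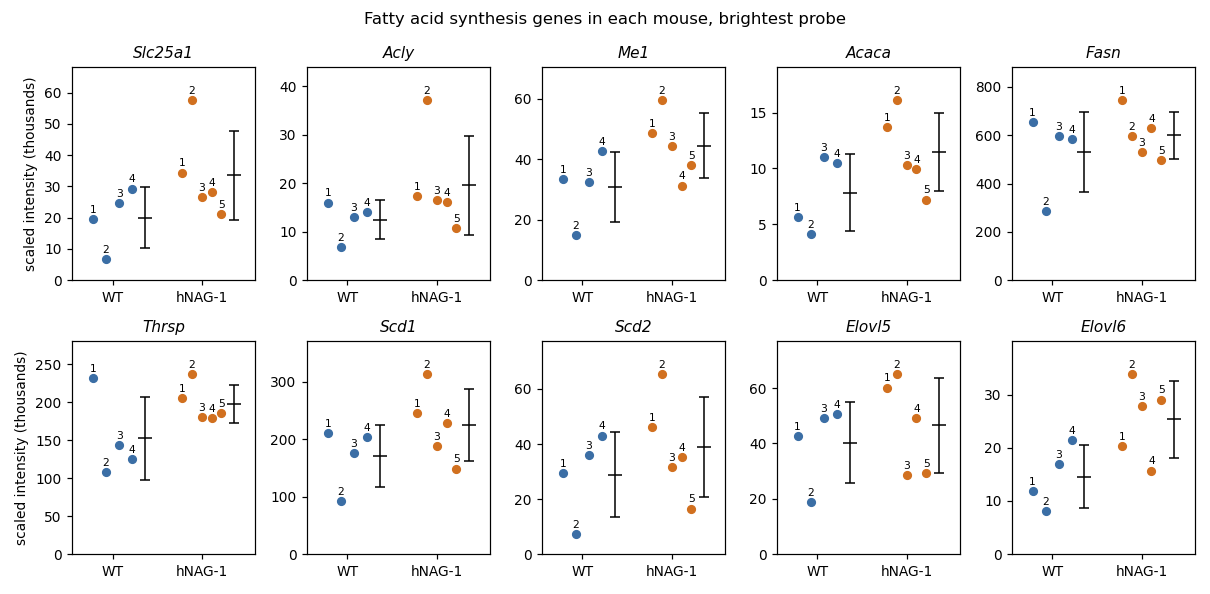
Scaled intensity (arbitrary units, divided by 1000) for the brightest probe of each gene, with 1 point per mouse numbered by replicate (blue, WT, n = 4; orange, hNAG-1, n = 5); bars give the mean and SD, and each panel has its own axis from 0. WT 2 is the lowest point in all 10 panels, and hNAG-1 2 is the highest in 9 of them.

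Citrate supply and its cleavage come first in the pathway. Slc25a1, the mitochondrial citrate carrier (probe at chr16:17475243-17475302, mm7), read 19591, 6769, 24585 and 29328 in WT 1 to 4. In hNAG-1 1 to 5 it read 34449, 57674, 26536, 28080 and 21083. WT 2 lay far under the other mice, hNAG-1 2 far above them, and only hNAG-1 1 and 2 lay above every WT mouse. The difference was 0.84 (SE 0.45, 95% interval -0.17 to 1.85, p = 0.0921, exact permutation p = 0.111). It was 0.38 without WT 2 and 0.31 with slide as a block. Leaving out WT 4 gave 1.09 (limma, unadjusted p = 0.0480).

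Acly, the ATP citrate lyase that frees cytosolic acetyl-CoA (probe at chr11:100586242-100586300, mm7), read 16028, 6851, 12946 and 14113 in WT 1 to 4. It read 17410, 37178, 16526, 16055 and 10697 in hNAG-1 1 to 5. Of the hNAG-1 mice, 4 of 5 lay above every WT mouse, 3 of them by little, and hNAG-1 5 lay below 3 WT mice. The difference was 0.59 (SE 0.37, p = 0.147, exact permutation p = 0.23), 0.32 without WT 2, 0.33 without hNAG-1 2 and -0.01 with slide as a block. A second, dim Acly probe, A_52_P373556, whose annotation names an unclassifiable clone, read 21, 22, 83 and 36 in WT and 114, 101, 82, 71 and 33 in hNAG-1. It was well above background in 3 of 4 WT and 5 of 5 hNAG-1 mice. Its difference was 1.11 (SE 0.49, p = 0.0471, exact permutation p = 0.0952, adjusted p = 0.654). With normexp background correction it was 0.53, and on slide 3 it turned to -0.31. Its unadjusted p stayed under 0.05 only without WT 3 or without hNAG-1 5, and leaving out any of the other 7 mice brought it above.

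Me1, the cytosolic malic enzyme that yields NADPH (probe A_51_P266861 at chr9:86685035-86685095, mm7), read 33412, 15043, 32485 and 42578 in WT 1 to 4. The hNAG-1 mice read 48554, 59585, 44389, 31284 and 38108. The top 3 values were all of hNAG-1 mice and the other 2 lay within the WT range. The difference was 0.59 (SE 0.31, p = 0.0931, exact permutation p = 0.103). The second Me1 probe, taken from a partial coding sequence of the mRNA, read 10186 to 21732 in WT and 19352 to 43222 in hNAG-1, and differed by 0.62 (p = 0.0679, exact permutation p = 0.0635). The 2 Me1 probes were thus 0.03 apart, the smallest gap of the 5 genes with several probes. Without WT 2 they gave 0.27 and 0.39, and with slide as a block 0.47 and 0.26. Leaving out WT 4 gave 0.77 and 0.75 (limma, unadjusted p = 0.0426 and 0.0478).

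Acaca, acetyl-CoA carboxylase 1, makes malonyl-CoA and is the committed step of the pathway. Its brightest probe read 5679, 4100, 11019 and 10511 in WT 1 to 4. It read 13678, 16129, 10309, 9941 and 7222 in hNAG-1 1 to 5. The top 2 values were of hNAG-1 1 and 2, and the other 3 hNAG-1 mice lay within the WT range. The difference was 0.61 (SE 0.35, p = 0.111, exact permutation p = 0.159), 0.34 without WT 2 and -0.11 with slide as a block.

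The 3 Acaca probes that span splice junctions, whose letters are given above, differed less. A_52_P23177 read 339, 207, 508 and 431 in WT and 535, 537, 360, 403 and 384 in hNAG-1, a difference of 0.31 (95% interval -0.30 to 0.92). A_51_P439426 read 386, 242, 553 and 541 in WT and 713, 378, 396, 374 and 368 in hNAG-1, a difference of 0.07 (-0.60 to 0.75). A_52_P595124 read 301, 133, 381 and 421 in WT and 416, 275, 286, 169 and 268 in hNAG-1, a difference of -0.06 (-0.89 to 0.77). In all 3, most hNAG-1 mice lay inside the WT range, and WT 2 was the lowest. Between the highest and lowest of the 4 Acaca probes the estimates were 0.67 apart, the widest gap of any member gene, and whether the probes differ from each other was not tested. Without WT 2, the 3 gave 0.06, -0.18 and -0.42.

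Fasn, the multienzyme that builds palmitate, had its brightest probe at chr11:120916191-120916250 (mm7). It read 655657, 284651, 597773 and 583361 in WT 1 to 4. In hNAG-1 1 to 5 it read 745936, 597299, 530335, 629087 and 498008. Apart from WT 2 and hNAG-1 1, the 7 mice lay between 498008 and 655657, with WT and hNAG-1 mixed. The difference was 0.23 (SE 0.26, 95% interval -0.35 to 0.82, p = 0.39, exact permutation p = 0.524), and it was -0.04 without WT 2. The second Fasn probe, A_52_P100252, read 23126, 7810, 21445 and 21064 in WT and 39557, 36966, 23699, 20491 and 17102 in hNAG-1. Its difference was 0.63 (SE 0.38, p = 0.136, exact permutation p = 0.222), or 0.26 without WT 2. For the brighter probe, and for the brightest ones of Me1, Thrsp, Scd1 and Elovl5, the scanner files mark the reading on 9 of 9 arrays as taken at low gain and scaled up. Other probes carry this mark on some arrays only. Among them, Slc25a1 has it on 2 WT and 5 hNAG-1 arrays, Elovl6 on 1 and 3, and Fasn A_52_P100252 on 2 and 4. The part of the gain in their differences was not tested.

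Thrsp, or Spot 14, a lipogenic protein of the lactating gland, read 231897, 108636, 143521 and 125286 in WT 1 to 4. It read 205404, 237364, 180397, 178787 and 186228 in hNAG-1 1 to 5. All 5 hNAG-1 mice lay above 3 of the WT mice, while WT 1 lay above all but hNAG-1 2. The difference was 0.43 (SE 0.23, 95% interval -0.08 to 0.94, p = 0.0889, exact permutation p = 0.0952), 0.29 without WT 2 and 0.58 with slide as a block. Leaving out WT 1, the high WT mouse and the only one on slide 1, gave 0.65 (limma, unadjusted p = 0.00492).

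The desaturases place the first double bond. Scd1, the stearoyl-CoA desaturase that adipose and mammary tissue share with liver, read 210249, 93021, 175659 and 203778 in WT 1 to 4. It read 244849, 313744, 188586, 228097 and 148983 in hNAG-1 1 to 5. Of the hNAG-1 mice, 3 of 5 lay above every WT mouse and hNAG-1 5 lay below all but WT 2. The difference was 0.42 (SE 0.30, p = 0.187, exact permutation p = 0.238), 0.15 without WT 2 and -0.00 with slide as a block.

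Scd2, a second stearoyl-CoA desaturase, read 29354, 7342, 35958 and 43067 in WT 1 to 4. It read 46198, 65502, 31588, 35199 and 16560 in hNAG-1 1 to 5. Among the 10 genes it had the widest SE, and the lowest and highest mice, WT 2 and hNAG-1 2, both bear the number 2. The difference was 0.56 (SE 0.56, 95% interval -0.70 to 1.82, p = 0.343, exact permutation p = 0.421). Without WT 2 it was -0.01, without hNAG-1 2 0.34, without WT 4 0.84 and with slide as a block -0.44.

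The elongases lengthen the finished chain. Elovl5, which acts mainly on polyunsaturated chains (probe at chr9:78025742-78025801, mm7), read 42642, 18831, 49253 and 50527 in WT 1 to 4. It read 60161, 65124, 28681, 49239 and 29156 in hNAG-1 1 to 5. The hNAG-1 mice fell on both sides of the WT mice, 2 above every WT mouse and 2 below all but WT 2. The difference was 0.22 (SE 0.38, p = 0.571, exact permutation p = 0.627), and the second probe gave 0.25. Without WT 2 the probes gave -0.11 and -0.07, and with slide as a block -0.31 and -0.62.

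Elovl6, which takes palmitate to stearate (probe at chr3:129477684-129477743, mm7), read 11830, 8072, 16894 and 21501 in WT 1 to 4. It read 20316, 33893, 27856, 15721 and 29049 in hNAG-1 1 to 5. Of the hNAG-1 mice, 3 of 5 lay above every WT mouse and the other 2 lay between WT 1 and WT 4. The difference was 0.84 (SE 0.33, 95% interval 0.11 to 1.58, p = 0.0289, exact permutation p = 0.0556, adjusted p = 0.654). It was 0.59 without WT 2 and 1.02 with slide as a block, so Elovl6 kept the higher mean in hNAG-1 in both. Its unadjusted p was no longer under 0.05 with slide as a block, nor without WT 1, WT 2, hNAG-1 2, hNAG-1 3 or hNAG-1 5 (differences 0.59 to 0.80).

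**Figure D2:**
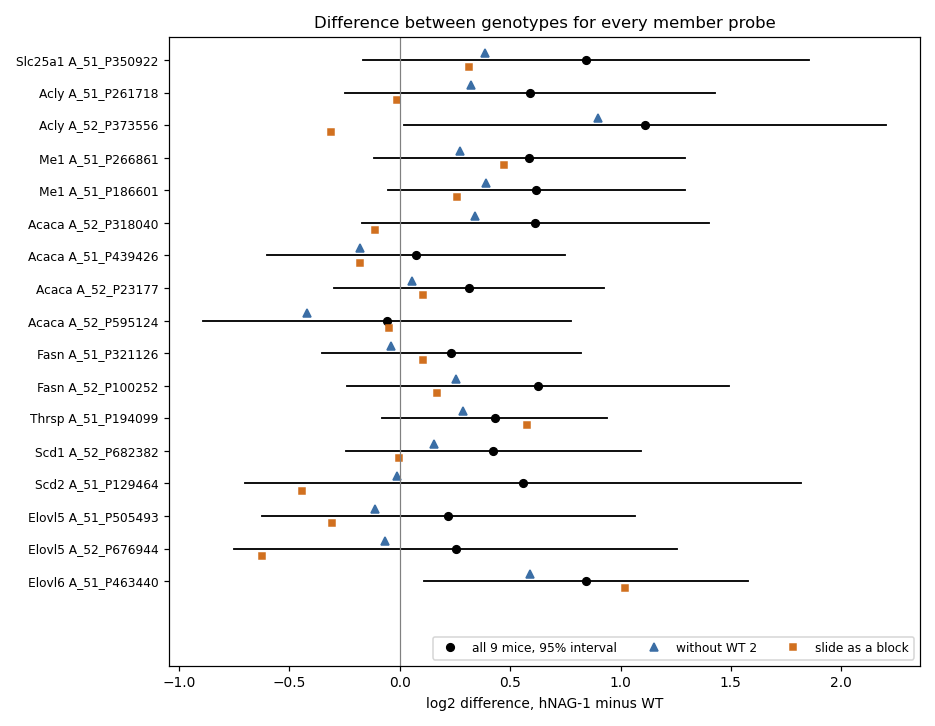
Log2 difference, hNAG-1 minus WT, for each of the 17 probes in pathway order: black points and lines, limma estimate and 95% interval over 9 mice; blue triangles, the estimate without WT 2; orange squares, the estimate with slide as a block. The interval lies above 0 for Elovl6 and the dim Acly probe, and many squares and some triangles lie at or below 0.

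Of the 17 probes, 2 had an unadjusted p under 0.05, both higher in hNAG-1, and 0 passed adjustment (limma). Over the array 1.2% of probes were higher and 4.42% lower at that unadjusted p, and 0.00243% passed an adjusted p under 0.05. The count of 2 is small, and the 2 probes belong to different genes. No member probe had genotypes that did not overlap, against 0.695% of all probes with every hNAG-1 mouse above every WT mouse. The median difference of the 10 genes was 0.57, beside -0.01 over all 41174 probes and 0.10 over the 2075 probes at least as bright as the dimmest member gene. It was 0.28 without WT 2, 0.35 without hNAG-1 2 (10 of 10 genes higher), 0.11 without both (7 of 10 higher) and 0.05 with slide as a block (5 of 10 higher). With slide as a block the median over all probes was itself 0.19, above that of the members.

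The genes moved together from mouse to mouse. Averaged over the 10 genes as log2 values centered on the mean of the 9 mice, the level was -0.08, -1.24, 0.00 and 0.14 in WT 1 to 4. It was 0.41, 0.80, 0.09, 0.10 and -0.21 in hNAG-1 1 to 5. The difference of 0.53 between the genotype means was close to the SD between mice within a genotype, 0.51. WT 2 was at 0.42 times the mean level and hNAG-1 2 at 1.75 times, and 4 of the 5 hNAG-1 mice and 2 of the 4 WT mice were above it. Every one of the 10 genes was above its mean in hNAG-1 1 and 2, and none was in WT 2. With no scaling WT 2 was still the lowest, at -0.67, but near WT 1 at -0.50, and hNAG-1 1 moved to -0.17. For comparison, as scaled, WT 2 was the lowest array for 29.3% of the 23086 probes well above background on all 9 arrays, for 12 of 12 genes of acetyl-CoA supply, 13 of 14 luminal markers and 6 of 7 myoepithelial markers. Without WT 2 the genotype difference was 0.22.

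**Figure D3:**
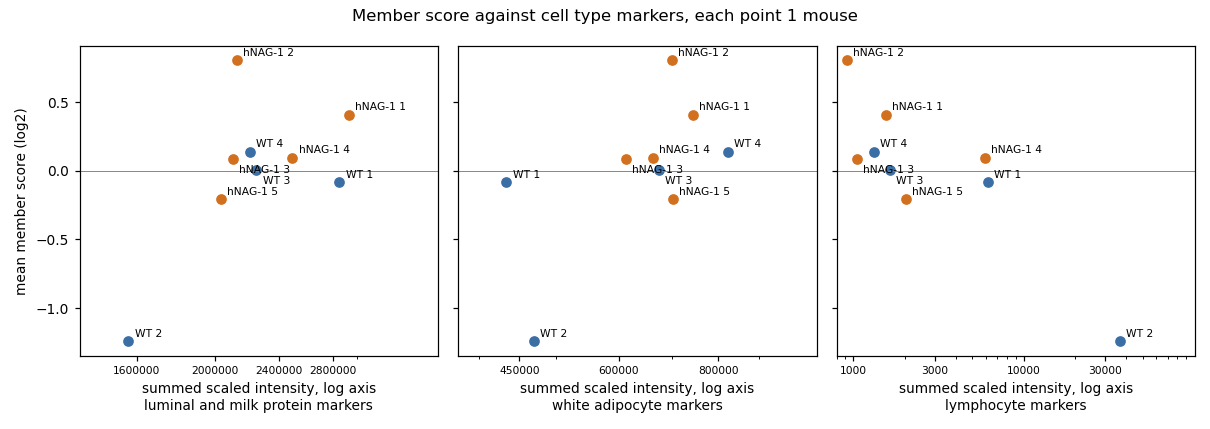
Mean level of the 10 genes in each mouse (log2, centered on the mean of 9 mice) against the summed scaled intensity of luminal, white adipocyte and lymphocyte markers (log axes), with 1 point per mouse (blue, WT; orange, hNAG-1). WT 2 lies alone, with the lowest member level, the lowest luminal sum and the highest lymphocyte sum, 36749; with no scaling its luminal sum, 2326916, is not the lowest.

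The individual genes followed this shared pattern to different degrees. As the root-mean-square distance over 9 mice from the average of the other 9 genes, Scd1 was the closest at 0.16 and Me1 followed at 0.19, while Thrsp at 0.42, Scd2 at 0.44 and Elovl6 at 0.46 were the farthest. Genes outside the pathway were set against the average of all 10, from which a probe with the same level in every mouse would be at 0.52. Of them, 5 lay closest: Dlat at 0.11, Lgals12 at 0.13, Svip at 0.14, Fam210b at 0.15 and Elovl1 at 0.15. Dlat is a subunit of pyruvate dehydrogenase, which makes mitochondrial acetyl-CoA, Lgals12 is a galactose-binding lectin, and Elovl1 is an elongase of very long chains. By distance from the average of all 10, Scd1 ranked 3 and Me1 11 among 23086 probes above background. Thrsp ranked 1956, Scd2 2825 and Elovl6 3264, so many probes outside the pathway lay closer to the average than these genes did. Dlat was 1.09 below its mean in WT 2 and 0.73 above it in hNAG-1 2.

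The neighboring steps were examined as lists, each gene by its brightest probe. Of 12 genes for pyruvate, citrate and acetyl-CoA supply, 12 had the higher mean in hNAG-1 (median 0.28; with no scaling 9, median 0.13), and 0 had an unadjusted p under 0.05 in limma. The acetyl-CoA synthetase Acss2 differed most, 0.87, with 6218 to 18810 in hNAG-1 and 2793 to 8396 in WT (p = 0.0502, exact permutation p = 0.0635). Without WT 2, 11 of the 12 were higher with a median of 0.09, and Acss2 differed by 0.58. Of the NADPH supply list, 11 of 12 genes were measured, 8 were higher (median 0.12; without WT 2 8, median 0.04; with no scaling 5, median -0.03) and 0 passed an unadjusted p under 0.05 in limma, with differences from -0.75 for the mitochondrial malic enzyme Me3, which turned to 0.69 with slide as a block, to 0.34 for Pgd of the pentose phosphate pathway. In the 5 measured genes of mitochondrial fatty acid synthesis the median was 0.08 with 4 higher (-0.07 with no scaling and -0.01 without WT 2, each with 2 higher), with Oxsm at -0.06 and Mecr at 0.19, and again 0 passed in limma. These counts stand beside the 46.5% of higher means among probes above background.

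Among 11 partners of the cytosolic enzymes, 9 had the higher mean (median 0.17; without WT 2 7, median 0.06; with no scaling 6, median 0.02; with slide as a block 5, median -0.08) and 1 had an unadjusted p under 0.05, beside 1.2% of all probes. This was Mid1ip1, which binds acetyl-CoA carboxylase and promotes its polymerization and is related to Thrsp. It read 1557 to 2311 in the WT mice and 2339 to 3285 in the hNAG-1 mice, so the genotypes did not overlap. The difference was 0.55 (limma, p = 0.0126, exact permutation p = 0.0159, adjusted p = 0.654), 0.49 without WT 2 and 0.18 with slide as a block. No partner had an unadjusted p under 0.05 in limma with no scaling, or with WT 2 and hNAG-1 2 both left out. Of all probes, 0.695% lay this way without overlap.

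Of 16 other desaturases and elongation enzymes, 12 had the higher mean (median 0.26; without WT 2 10, median 0.14; with no scaling 11, median 0.11), and 2 had an unadjusted p under 0.05, against 1.2% of all probes. Of these calls 1 was left without WT 2 or without hNAG-1 2 (limma), and 0 with no scaling or with both of these mice left out. Of the 16, 12 were well above background on all 9 arrays, and Elovl2 on 0 and Elovl4 on 2, so that their means hold no direction. Elovl2 (0.30) and Elovl4 (1.12) are still counted among the genes with the higher mean and in the median. Both genes with a p under 0.05 act in the elongation cycle that serves every elongase. Tecr, its last reductase, read 8784 to 13220 in WT and 14140 to 21340 in hNAG-1, with no overlap, as in 0.695% of all probes. Its difference was 0.53 (p = 0.0166, adjusted p = 0.654), and the exact permutation p of 0.00794 was the smallest that 4 against 5 mice can give. It was 0.42 without WT 2 and 0.44 with slide as a block. Hsd17b12, its first reductase, read 6661 to 8372 in WT and 8210 to 14070 in hNAG-1, and differed by 0.44 (p = 0.0339, exact permutation p = 0.0238).

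Of 20 lipogenic regulators, 16 had the higher mean (median 0.05), beside 46.5% of probes above background, and with no scaling 8 had (median -0.10). The 1 with an unadjusted p under 0.05, beside 1.2% of all probes higher at that p, was Mlxipl, or ChREBP, a glucose-responsive activator of lipogenic genes. It read 896.6 to 3032 in WT and 2086 to 4169 in hNAG-1, and differed by 0.84 (p = 0.0374, exact permutation p = 0.0794, adjusted p = 0.654), or 0.59 without WT 2 and 0.54 with slide as a block. No regulator had an unadjusted p under 0.05 in limma without WT 1, WT 2 or hNAG-1 2, with WT 2 and hNAG-1 2 both left out, or with no scaling.

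**Figure D4:**
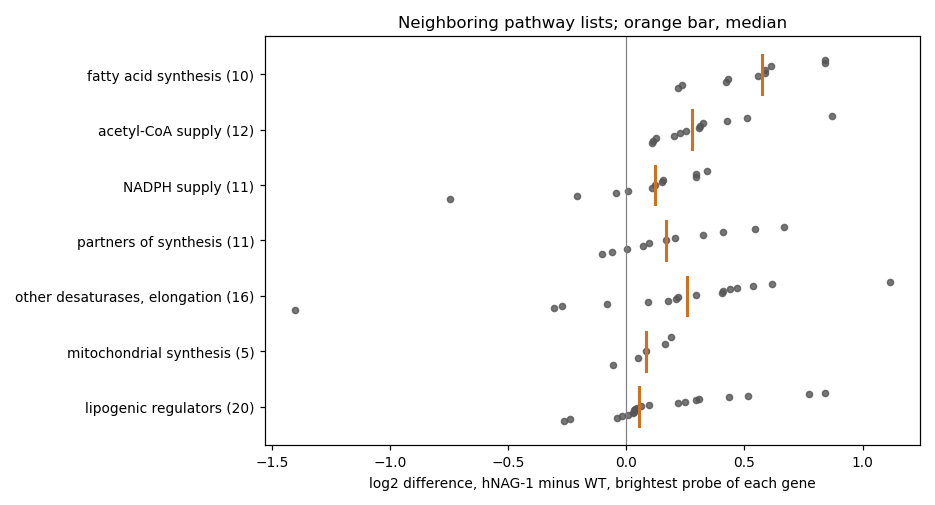
Log2 difference, hNAG-1 minus WT, of each gene by its brightest probe (gray points, sorted within a list) for 7 lists, with the number of genes measured in parentheses and the median as an orange bar. The median of the 10 members is 0.57, and those of the other lists run from 0.05 for lipogenic regulators to 0.28 for acetyl-CoA supply.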

How the data were processed

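RNA of mammary gland number 4 on L2 was measured in 4 WT and 5 hNAG-1 mice, grouped by their labels. The authors deposited 1-color scanner output (Agilent Feature Extraction 9.5, version 9.5.3.1 per the file headers) as background-subtracted intensity with no scaling between arrays, and the deposited series table held equal values. The methods name an ANOVA at p under 0.05, a fold of 1.5 and an intensity of 65, and no normalization.

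Of 45018 features per array, 1639 controls were left out and repeated spots averaged, giving 41174 probes. Arrays were brought to a common 75th percentile, which was 508.59 to 1132.81 as deposited. Genotypes were compared on log2 values with lmFit and eBayes of limma 3.58.1 (R 4.3.3), two-sided, with 7 residual degrees of freedom and Benjamini-Hochberg adjustment over the 41174. Single probes also had an exact permutation test over every split into 4 and 5 mice. On simulated data with 200 of 41174 probes changed, 67% of 1.5-fold and 87% of 2-fold changes had a p under 0.05 and 0% passed adjustment, while 86.5% of 4-fold changes did. The simulated noise was drawn separately for each probe and array, with no outlying mouse and no slide effect. These shares therefore need not hold for the members, whose brightest probes had an SE of 0.23 to 0.56. Precision is limited by the number of arrays.

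The members and lists were chosen with earlier results of these data known. Named outside the members were the genes of each list with an unadjusted p under 0.05, or else those of its largest rise and fall, and the 5 probes closest to the member average. Some cell type markers were also named as examples. Probe coordinates are those of the array files (mm7); gene names and promoters came from RefSeq tables of GRCm38.p6, which held the accession of 22951 probes, and matched Me1 to Mod1. An annotation of mm7 was not used here, so exons are not given. Rpia, Hsd17b8 and Acsf3 were not matched to a probe, and 1 lymphocyte marker was left out of its list, for a reason unrelated to its values, and is not reported here. Alternatives covered background correction, scaling, floors and filters, the methods' ANOVA, array weights, slide, replicate number and each mouse left out, and leaving out WT 2 and hNAG-1 2 together was added after the data were seen.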

Additional observations from a re-analysis of the deposited data

Results flagged for a closer look

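Among 36 groups of mice examined with Dixon's test (17 probes and the average of the 10 genes, in each genotype), 5 had a mouse far from the others. The groups share the same mice and the genes moved together, so they are not 36 separate chances. Every gap over range here was taken on log2 values, while the levels of probes are scaled intensities. In WT, WT 2 lay below the rest for both Fasn probes, A_51_P321126 (284651, gap over range 0.86) and A_52_P100252 (7810, 0.914). It also did for the Elovl5 probe A_52_P676944 (5927, 0.907) and for the average of the 10 genes (-1.24 on the log2 scale, 0.841). In hNAG-1, hNAG-1 1 lay above the rest for the Acaca probe A_51_P439426 (713; 0.889). WT 2 was also the mouse with the lymphocyte marker sum of 36749.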

How the results depend on the processing

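Over 18 alternatives listed apart from the fits that leave out each mouse, 28 of 306 probe values changed sign. This count does not measure stability, because many of the values could not differ. The floor, the filters, trend and robust estimation and the methods' ANOVA left the member estimates as reported. Slide 3 alone repeats the estimates of the slide block, leaving out slide 1 is leaving out WT 1, and the replicate block repeats the estimates without hNAG-1 5. No member probe passed adjustment under any setting (limma or ANOVA, lowest adjusted p 0.16). The number of probes with an unadjusted p under 0.05, 2 as reported, was 5 with median scaling, 4 with normexp background correction, 3 with trend and robust estimation, 1 with the 75th percentile over probes above background, with a floor of 20, with array weights, with the methods' ANOVA, with slide as a random block and without slide 1, and 0 with no scaling, with quantile normalization and the methods' ANOVA, with slide as a fixed block, on slide 3 alone and without both mice numbered 2. On slide 3, by block or alone, 5 genes were higher and their median was 0.051; the probe values that turned were -0.011 and -0.31 for Acly, -0.11 (A_52_P318040) and -0.18 (A_51_P439426) for Acaca, -0.0033 for Scd1, -0.44 for Scd2, and -0.31 and -0.62 for Elovl5. The Acaca probe A_52_P595124 turned to 0.018 with quantile normalization, with and without the methods' ANOVA, and to 0.15 with median scaling. A_51_P439426 turned to -0.078 with no scaling and -0.21 with array weights, where Elovl5 A_51_P505493 gave -0.026, 9 genes were higher and the member median was 0.34. Without both mice numbered 2, the values that turned were -0.13 (A_51_P439426) and -0.018 (A_52_P23177) for Acaca, -0.043 for Fasn A_51_P321126, -0.23 for Scd2, and -0.26 and -0.29 for Elovl5. The cause of these changes was not tested.

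Leaving out each mouse in turn gave 0 to 4 probes with an unadjusted p under 0.05 (0 without WT 2, hNAG-1 2 or hNAG-1 3, and 4 without WT 4), 7 to 10 genes higher, a median of 0.28 to 0.72 and a difference of the average of 0.22 to 0.68, the lowest without WT 2. The ranges that crossed 0 were -0.18 to 0.22 for Acaca A_51_P439426, -0.42 to 0.13 for A_52_P595124, -0.042 to 0.36 for Fasn A_51_P321126, -0.011 to 0.84 for Scd2, and -0.11 to 0.37 (A_51_P505493) and -0.069 to 0.49 (A_52_P676944) for Elovl5.

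The median over all probes, -0.01 as reported, was 0.20 with median scaling and -0.16 with no scaling; these shift every probe of an array alike, so the member median relative to it, 0.59, cannot move. That distance was 0.47 with quantile normalization and -0.14 with slide as a block, where the median over all probes was 0.19. The share of the array's unadjusted calls that lay higher in hNAG-1 was 21.4%, against 70.7% with median scaling, 57.5% with quantile normalization, 53.4% with normexp, 2.86% with no scaling and 90.6% of 3122 with slide as a block, a fit in which 137 probes of the array, none of them a member, passed adjustment against 1 as reported. Same-numbered mice did not deviate together (correlations 0.28, -0.20, -0.14 and -0.31; the best partner had the same number for 1 of 4 WT mice). A fit with the replicate number as a block, which drops hNAG-1 5, gave 1 probe with an unadjusted p under 0.05 and a member median of 0.70, with 10 of 10 genes higher.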
